A study of Mus musculus with 2 samples.

Results

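Glutathione S-transferases are enzymes that join the tripeptide glutathione to reactive or foreign molecules, and several of them also reduce peroxides with it. Of 9 genes of this family, chosen by gene symbol, all 9 were found among the 8251 genes of the array, on 15 probe sets. They are the cytosolic mu class genes Gstm1, Gstm2 and Gstm5, the alpha class gene Gsta4, the pi class gene Gstp1, the omega class gene Gsto1, the theta class gene Gstt1 and the membrane-bound genes Mgst1 and Mgst3. Total RNA of D16 and of D351, which are 2 clones of mouse mesoangioblasts, was hybridised to U74A arrays, 1 array for each. Mesoangioblasts are vessel-associated mesodermal progenitors. Both lines are single-cell clones from C57BL6 embryonic dorsal aorta (embryonic day 9.5), kept as an explant for 5 days and then cloned at limiting dilution over a mitomycin-treated fibroblast feeder layer, with 20% serum in the medium. No treatment separates them, so each difference is one between 2 individual clones, without a replicate and without a test.

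The cytosolic enzymes work as dimers built from subunits of a class, while the membrane-bound enzymes belong to a separate family that also makes leukotrienes and prostaglandin E2. Many genes of both kinds are known targets of NRF2, a transcription factor that binds antioxidant response elements when cells meet electrophiles or oxidants. In embryonic and mesenchymal cells the pi, mu and omega enzymes are widely expressed, whereas alpha enzymes are typical of liver.

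Intensities were scaled to a common median and are given per probe set. Levels below an intensity floor of 17.4 were not read as signal. Where just one clone was below it, the fold difference is a minimum and is given with the words "at least". A difference was counted from 2-fold on. The 9 members are described here in 3 sets, of which only the first passed 2-fold by the brightest probe sets. Mgst1, Gstm2 and Gstt1 were at least 2-fold higher in D351, Gstm2 by 1 of its 2 probe sets. Gstp1 and Gsto1 had higher levels in D16, with log2 ratios of D351 over D16 of -0.93 and -0.59, both under 2-fold. The line between them and the next set is not firm. Gstm1, Gstm5, Gsta4 and Mgst3 lay within 1.23-fold between the clones by their brightest probe sets. The other Gstm1 probe set was 2.05-fold higher in D16, and further Gstm5 probe sets ranged up to at least 3.11-fold higher in D351.

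The stretches of DNA just before the start of 4 members are shown because they belong to the gene with the largest difference in each direction among those with an entry (Mgst1 and Gstp1) and to a pair of mu genes that differed in their ratios (Gstm2 and Gstm5). Each run is the 250 bases before the most upstream annotated start, from RefSeq on mouse assembly GRCm38.p6, 5′ to 3′ on the strand of the gene. The positions are chr6:138140277-138140526 on the plus strand for Mgst1, chr3:107986421-107986670 on the minus strand for Gstm2, chr3:107895604-107895853 on the plus strand for Gstm5 and chr19:4037913-4038162 on the minus strand for Gstp1. Capitals mark matches to TGACNNNGC, the core of the antioxidant response element, or to TGANTCA, the AP-1 site bound by JUN and FOS, on either strand.
Mgst1: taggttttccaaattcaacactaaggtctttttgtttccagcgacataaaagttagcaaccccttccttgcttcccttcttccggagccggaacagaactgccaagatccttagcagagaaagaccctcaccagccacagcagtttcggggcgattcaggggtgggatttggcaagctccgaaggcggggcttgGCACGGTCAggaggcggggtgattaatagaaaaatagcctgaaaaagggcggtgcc
Gstm2: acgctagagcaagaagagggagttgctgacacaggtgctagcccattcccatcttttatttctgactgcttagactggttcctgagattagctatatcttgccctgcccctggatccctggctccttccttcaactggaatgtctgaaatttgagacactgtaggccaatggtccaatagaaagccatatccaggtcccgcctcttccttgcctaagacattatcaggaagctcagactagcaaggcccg
Gstm5: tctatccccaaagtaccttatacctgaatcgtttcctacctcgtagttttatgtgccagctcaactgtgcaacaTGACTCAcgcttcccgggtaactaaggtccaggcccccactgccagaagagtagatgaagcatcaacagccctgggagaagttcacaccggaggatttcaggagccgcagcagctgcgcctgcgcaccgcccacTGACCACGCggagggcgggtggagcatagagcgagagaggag
Gstp1: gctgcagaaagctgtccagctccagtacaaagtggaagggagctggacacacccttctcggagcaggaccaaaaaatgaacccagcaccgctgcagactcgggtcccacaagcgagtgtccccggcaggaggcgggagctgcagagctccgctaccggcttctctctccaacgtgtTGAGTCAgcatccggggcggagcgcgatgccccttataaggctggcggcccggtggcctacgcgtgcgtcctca

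Of the 9 members, 8 had such an entry, and Gsta4 had none. The antioxidant response element core in the form TGACNNNGC was found before Mgst1, at bases 56 to 48 before the start on the opposite strand. It was also found before Gstm5, at bases 42 to 34, so in 2 of 8 windows. Of all 32851 windows of 250 bases, 10.2% held it. That set has a window before each annotated start, so genes with several starts count repeatedly. The members' windows are those before the most upstream start only. The shares of all windows given here are therefore not from a fully like set. Other forms of the core were not searched, in Gstp1 or in any other window. The AP-1 letters were found before Gstp1, at bases 74 to 68, and before Gstm5, at bases 176 to 170, against 6.75% of all windows. The core of the dioxin response element, GCGTG, through which the aryl hydrocarbon receptor acts, was present in 4 of 8 windows (Gstm1, Gstm5, Gstp1 and Mgst3) and in 28.2% of all. In Gstm5 its matches overlap both the AP-1 letters and the antioxidant response element core. The GC box GGGCGG was present in 5 of 8 windows and in 32.7% of all, and TATAAA in 0 of 8 and in 12.4%. The Gstm2 and Gstt1 windows held none of these 5 motifs. A match is a description of letters, not a binding site, and no match says only that the letters are not in this window.

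**Figure D1:**
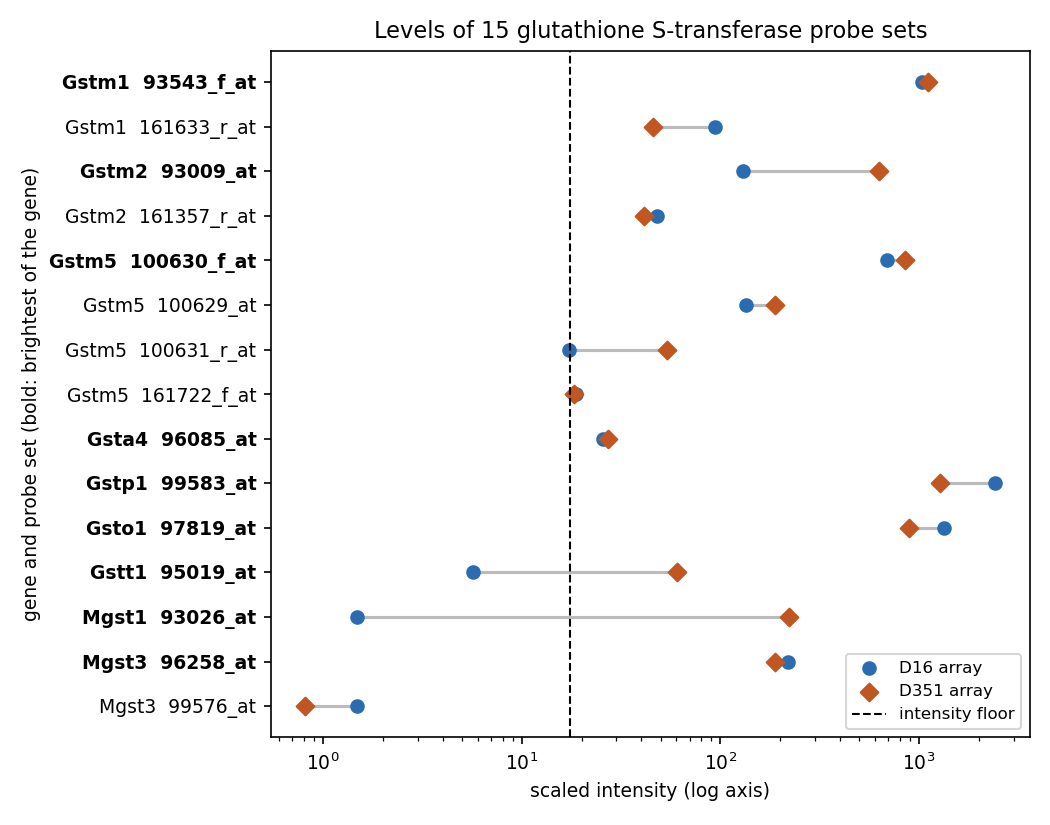
Scaled intensity (log axis) of each of the 15 probe sets on the D16 array (circles) and the D351 array (diamonds), with the intensity floor of 17.4 as a dashed line; the brightest probe set of each gene is in bold. Mgst1 and Gstt1 are left of the floor in D16 and right of it in D351, while the bright Gstm1, Gstm5, Gstp1 and Gsto1 probe sets lie far above it in both clones.

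Mgst1 had the greatest ratio of the 9 members, and its relative Mgst3 was within 2-fold. Mgst1, the microsomal transferase of the endoplasmic reticulum and outer mitochondrial membrane that also reduces lipid hydroperoxides, measured 1.47 in D16 and 222 in D351. The D16 value is far below the floor and the D351 value far above it, which gives at least 12.8-fold (a log2 ratio of at least 3.67). Among the 6098 genes at or above the floor in 1 clone or both, its bound ranked 21 from the top. Mgst1 has a single probe set, so the difference has no second measurement within the arrays. Mgst3, a relative with peroxidase activity, measured 219 in D16 and 188 in D351, a log2 ratio of -0.22. Its sign turned, to 0.18, when the arrays were scaled on the hybridization controls, and its other probe set was below the floor in both clones. The log2 ratios of Mgst1 and Mgst3 were at least 3.89 apart.

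The other genes of the membrane-bound family did not share one direction. Mgst2, which conjugates leukotriene A4 as well as foreign compounds, measured 150 in D16 and 60.2 in D351, so it was 2.49-fold higher in D16. Ptges, the inducible prostaglandin E synthase, measured 193 and 74.5 and was 2.59-fold higher in D16. Ltc4s, leukotriene C4 synthase, measured 26.0 and 52.1, so D351 was 2.01-fold higher, and the D16 level was near the floor. Second probe sets of Mgst2 and Ltc4s were below the floor in both clones. Of the 5 membrane-bound genes, Mgst1 and Ltc4s were thus 2-fold or more higher in D351, Mgst2 and Ptges in D16, and Mgst3 was in between. Mgst2 and Ptges fell short of 2-fold with the arrays scaled on the hybridization controls, and Ltc4s with the values as deposited, with a pseudocount of 16 and with the floor at the 60th percentile.

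Among the mu genes, Gstm2 stood apart by its brightest probe set. That probe set measured 130 in D16 and 633 in D351, a 4.87-fold difference (log2 ratio 2.28), and 98.5% of the 6098 genes had a lower ratio. A second Gstm2 probe set, of lower signal, measured 48.3 and 41.3, a log2 ratio of -0.22. The probe sets of this gene therefore disagree, by more than the usual spread: the SD of the log2 ratio between probe sets of one gene was 0.52 over 806 genes. This SD is a spread within the same 2 arrays and holds no variation between arrays or cultures. Suffixes in probe set names mark designs that may bind other transcripts or broke a design rule, and the second Gstm2 probe set carries one (r) while the first carries none.

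Gstm1, the most widely studied mu gene, measured 1043 in D16 and 1107 in D351 by its brightest probe set, a log2 ratio of 0.09. This probe set has the suffix f, given to designs shared by members of a gene family, so transcripts of other mu genes may add to it. The other Gstm1 probe set measured 93.6 and 45.7, a log2 ratio of -1.03. The level of Gstm1 was thus alike in both clones by one probe set and 2.05-fold higher in D16 by the other.

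Gstm5, a mu gene best known from mouse brain and testis, had 4 probe sets. The brightest, again of the f kind, measured 692 in D16 and 848 in D351 (log2 ratio 0.29). The probe set without a suffix measured 135 and 189 (log2 ratio 0.48). Another measured 17.2 and 54.0, at least 3.11-fold higher in D351 with a D16 value just below the floor, and the last measured 18.8 and 18.4. Of the 4 probe sets, 3 had the higher value in D351, by between 1.23-fold and at least 3.11-fold, and the fourth was near the floor with about equal values.

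The mu genes lie side by side on chromosome 3, in the order Gstm5, Gstm7, Gstm6, Gstm3, Gstm2, Gstm1 and Gstm4 on GRCm38.p6. Of these, Gstm7 and Gstm4 are not analysed here, and Gstm6 was below the floor in both clones. Gstm3, next to Gstm2, measured 118 in D16 and 133 in D351 (log2 ratio 0.17), and a further Gstm3 probe set gave -0.45. The brightest Gstm3 probe set is of the f kind, like that of Gstm1, so transcripts of other mu genes may add to both. By brightest probe sets, Gstm2 exceeded its neighbours Gstm3 and Gstm1 by 2.11 and 2.20 in log2 ratio. For comparison, the SD of a difference between 2 probe sets' ratios, from the spread above, was 0.73. The second Gstm2 probe set showed no such gap to Gstm3.

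**Figure D2:**
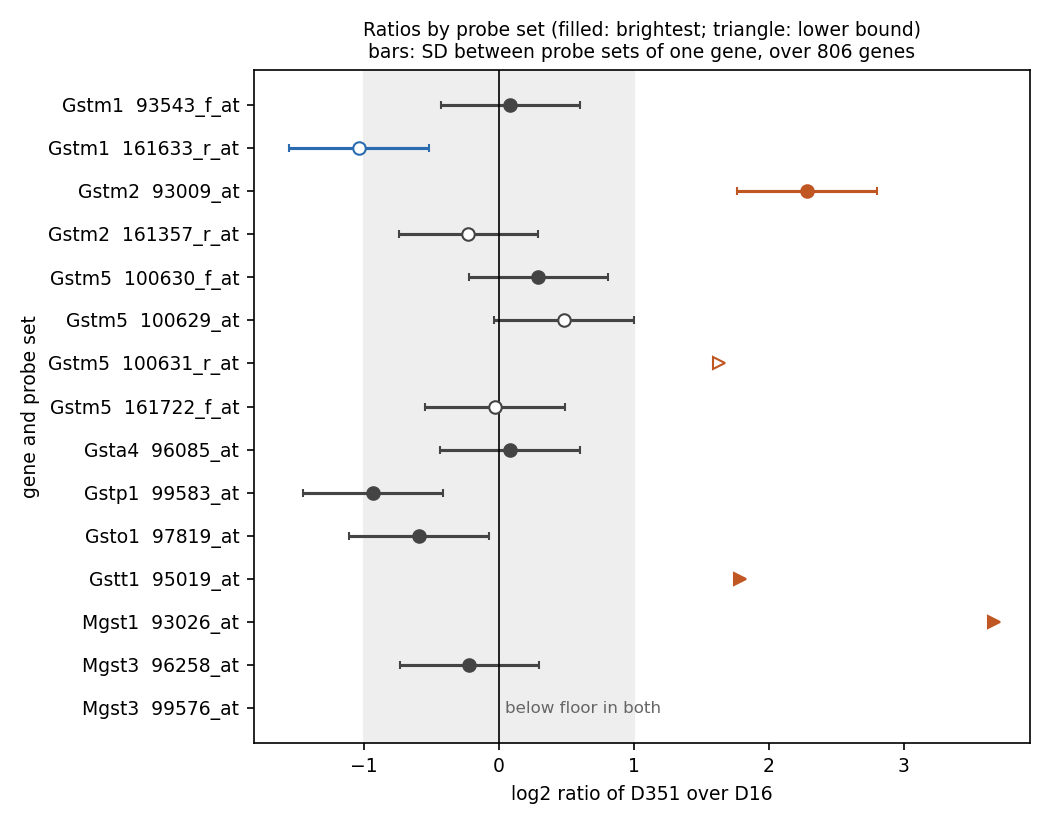
Log2 ratio of D351 over D16 for each member probe set (filled, brightest of its gene; triangle, lower bound; bars, the SD of 0.52 between probe sets of one gene). Mgst1, Gstt1 and the brightest Gstm2 probe set lie to the right of the 2-fold band, whereas the second Gstm2 probe set lies at -0.22.

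Gstt1, a theta class enzyme known for conjugating small halogenated compounds, measured 5.70 in D16 and 60.2 in D351. It did not reach the floor in D16, so D351 was at least 3.46-fold higher, again by a single probe set. With the floor at the 60th percentile its bound was a log2 ratio of 0.18, under 2-fold. Its neighbour on chromosome 10, Gstt2, measured 6.29 and 5.60 and was below the floor in both clones. Gsta4, the alpha class enzyme that removes the lipid peroxidation product 4-hydroxynonenal, measured 25.6 in D16 and 27.1 in D351, near the floor in both and not distinguishable between them. The other alpha genes on the array, Gsta1, Gsta2 and Gsta3, were below the floor in both clones, with values from 1.63 to 11.2.

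The pi and omega genes had higher values in D16. Gstp1, which also binds and restrains the stress kinase JNK, measured 2426 in D16 and 1274 in D351, 1.90-fold higher in D16 (log2 ratio -0.93). Of all genes measured, 10.1% had a lower ratio. Gstp2, a close copy, and Gstp3 lie beside it on chromosome 19 and are not analysed here. Whether their transcripts add to the Gstp1 signal was not tested. Gsto1, which acts as a thiol transferase and dehydroascorbate reductase, measured 1347 and 895, a log2 ratio of -0.59. Both kept that sign under each scaling tried, with log2 ratios of -0.54 for Gstp1 and -0.19 for Gsto1 under scaling on the hybridization controls. Neither reached 2-fold, and the Gsto1 difference is close to the probe set SD of 0.52.

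In order of log2 ratio, the members ran from Mgst1 (at least 3.67) over Gstm2 (2.28) and Gstt1 (at least 1.79) to Gstm5 (0.29), Gstm1 (0.09), Gsta4 (0.08), Mgst3 (-0.22), Gsto1 (-0.59) and Gstp1 (-0.93). From Gstm5 down, each gene differed from the next by less than 0.73, the SD of a difference between probe sets, so neighbours there have no firm order. Since that SD holds no variation between arrays or cultures, it cannot show that larger gaps are firm. Gstm2 and Gstt1 cannot be ordered either, since the latter is a bound.

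Counted over all 9 members, 3 were at least 2-fold higher in D351, where 10.6% of the 6098 genes were, and 0 were at least 2-fold higher in D16, where 8.87% were. The count of 3 holds 2 genes that passed the floor through D351 alone, which had to differ in that direction. With the arrays scaled on the hybridization controls, the all-gene shares were 19.9% for D351 and 4.10% for D16, the all-gene median log2 ratio went from -0.02 to 0.36, and the members' counts were again 3 and 0. With 9 genes and no replicates the count describes these arrays and was not tested.

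**Figure D3:**
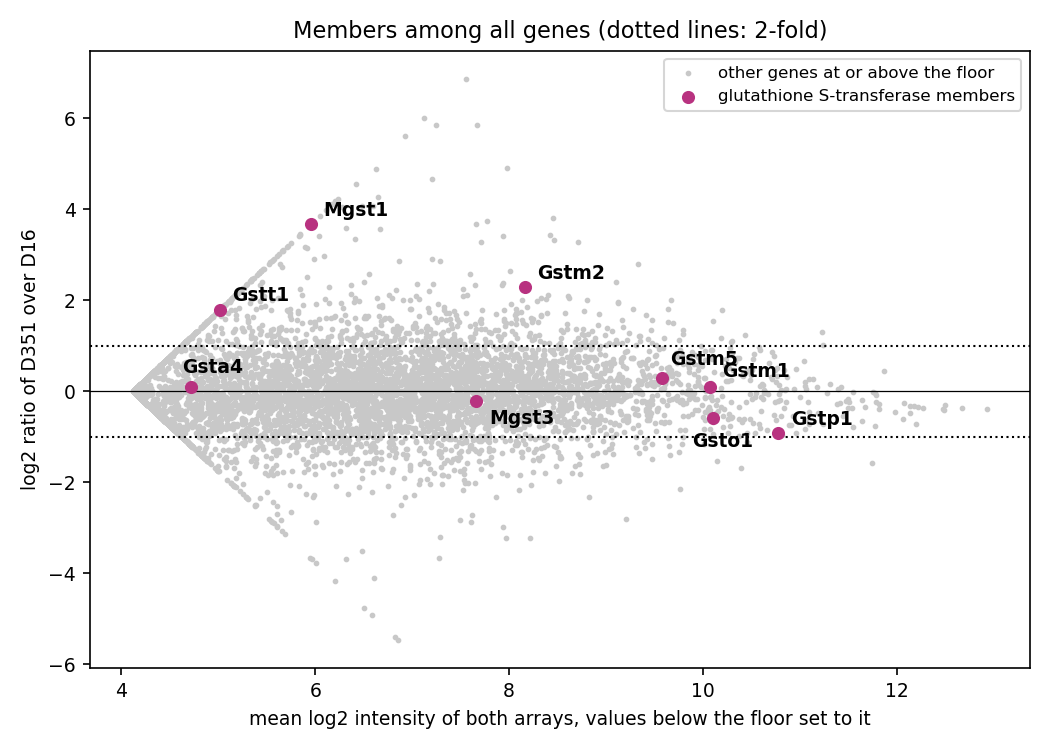
Log2 ratio of D351 over D16 against the mean log2 intensity for the 6098 genes at or above the floor in 1 clone or both (grey), with the 9 members in colour and 2-fold as dotted lines. Mgst1 and Gstt1 lie on the upper edge, formed by genes below the floor in D16, Gstm2 lies above 2-fold at a middle intensity, and Gstp1 and Gsto1 lie below 0 at high intensity.

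Beyond the 9 members, a list of 21 further family genes and relatives had 11 genes on the array and 6 at or above the floor in 1 clone or both. At least 2-fold higher in D351 were 2 (Ltc4s and Gstk1) and at least 2-fold higher in D16 were 2 (Mgst2 and Ptges). Of all 6098 genes 10.6% and 8.87% were. Gstk1, the kappa class enzyme of mitochondria and peroxisomes, measured 6.68 in D16 and 36.3 in D351, at least 2.09-fold higher in D351. Gstz1, the zeta class enzyme that isomerises maleylacetoacetate in tyrosine breakdown, measured 182 and 172. Over the 5 of these genes measured in both clones the median log2 ratio was -0.08, against -0.02 over all 5198 such genes. With the arrays scaled on the hybridization controls that median turned to 0.31 and the all-gene median to 0.36. Under that scaling 0 of these genes passed 2-fold towards D16, where 4.10% of all genes did.

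**Figure D4:**
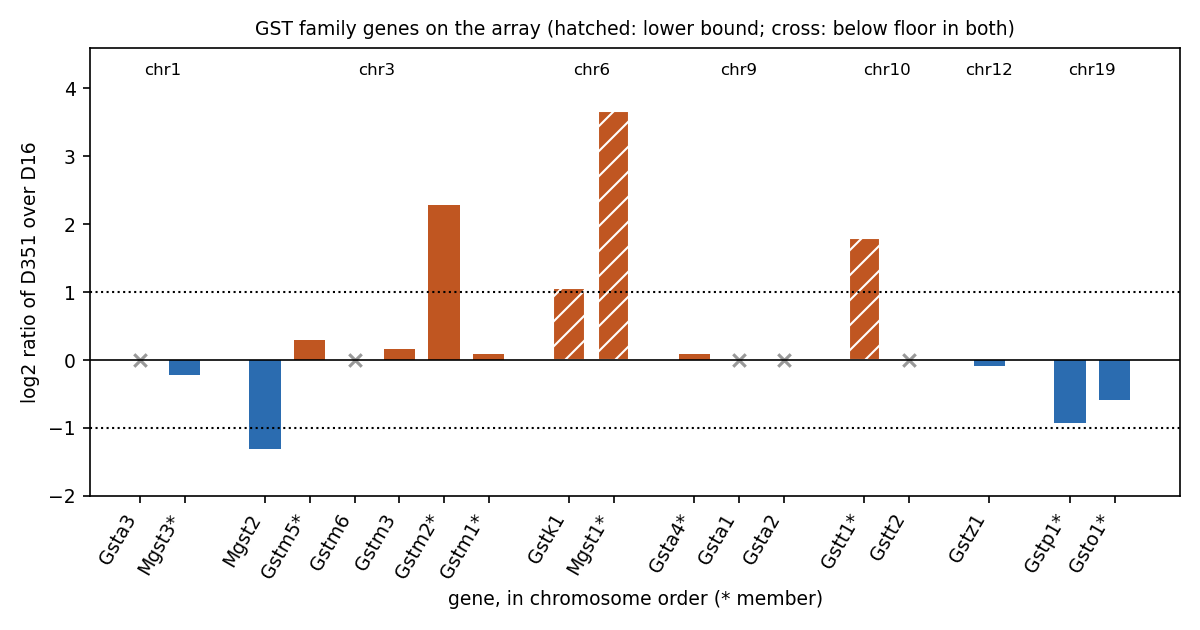
Log2 ratio of D351 over D16 for the 18 family genes on the array in chromosome order (asterisk, member; hatched, lower bound; cross, below the floor in both clones; dotted lines, 2-fold). On chromosome 3 the Gstm2 bar of 2.28 stands between bars of 0.17 and 0.09, and Mgst2 points the other way.

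Of 13 genes on the array that make and recycle glutathione, 12 were at or above the floor in 1 clone or both. Past 2-fold were 1 gene with the higher level in D351 and 1 with the higher level in D16, and the median log2 ratio of the 9 measured in both was -0.32. Of all 6098 genes, 19.4% were past 2-fold in either direction, and 12 genes are too few to set against that share. Slc3a2, the heavy chain of the cystine transporter, measured 1313 in D16 and 589 in D351, 2.23-fold higher in D16. Dpep1, a dipeptidase that acts on glutathione breakdown products, measured 3.24 and 42.4, at least 2.44-fold higher in D351. The synthesis genes Gclc and Gclm, which encode the subunits of the rate-limiting ligase, and Gsr, the glutathione reductase, are named here after their values were seen. Gclc measured 74.02 and 59.7, Gclm 86.1 and 61.1, and Gsr 138 and 85.5, at most 1.61-fold apart. With the arrays scaled on the hybridization controls the list median turned to 0.08 and the all-gene median to 0.36. Under that scaling 0 genes of the list were 2-fold higher in D16, where 4.10% of all genes were.

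Genes for enzymes that use glutathione and for exporters of its conjugates had 2 of 11 past 2-fold with the higher level in D351 and 0 with the higher level in D16. Of all 6098 genes 10.6% and 8.87% were, and 11 genes are too few to set against those shares. The median log2 ratio was 0.20 over the 9 measured in both clones, and -0.19 with the floor at the 60th percentile. The 2 genes past 2-fold were the secreted glutathione peroxidase gene Gpx3, at 22.9 in D16 and 438 in D351 (19.1-fold), and Gpx7. Gpx7, a peroxidase of the endoplasmic reticulum, measured 2.26 and 48.5 (at least 2.79-fold). It passed the floor through D351 alone, so it had to differ in that direction. Abcc1, the pump that carries glutathione conjugates out of the cell, is named after its values were seen and measured 36.1 and 41.4. With the arrays scaled on the hybridization controls, 4 genes in place of 2 passed 2-fold towards D351, where 19.9% of all genes did.

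NRF2 targets outside the transferase family, a list that shares Gclc, Gclm, Gsr, Pgd and Slc7a11 with the synthesis list, had 20 genes on the array, all at or above the floor in 1 clone or both. At least 2-fold higher in D351 was 1 and at least 2-fold higher in D16 were 3, where 10.6% and 8.87% of all 6098 genes were. Of the 18 genes measured in both clones, 14 had the higher level in D16, against 2649 of all 5198 such genes. The median log2 ratio of the 18 was -0.41. With the arrays scaled on the hybridization controls that median was -0.01, where the all-gene median was 0.36. The counts past 2-fold were then 3 and 2, where 19.9% and 4.10% of all genes were. These counts were not tested. Nqo1, the quinone reductase, measured 60.4 in D16 and 19.0 in D351, 3.17-fold higher in D16 with a D351 level near the floor, and 1.72-fold higher there by another probe set. Taldo1, of the pentose phosphate pathway, measured 374 and 129 (2.90-fold higher in D16), and the sulfiredoxin gene Srxn1 measured 128 and 57.6 (2.22-fold). In the other direction Ephx1, the microsomal epoxide hydrolase that often acts ahead of the transferases, measured 319 in D16 and 835 in D351, 2.62-fold higher in D351.

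Of 12 regulators of transferase genes on the array, 8 were at or above the floor. At least 2-fold higher in D351 were 2 (Bach1 and Mafg) and at least 2-fold higher in D16 were 2 (Ahr and Nr1i3). Of all 6098 genes 10.6% and 8.87% were, and 8 genes are too few to set against those shares. Ahr, the aryl hydrocarbon receptor, measured 152 in D16 and 36.0 in D351, 4.23-fold higher in D16. Nfe2l2, the gene of NRF2, measured 283 and 186, 1.52-fold higher in D16, and the related Nfe2l1 measured 226 and 342, 1.52-fold higher in D351. Bach1, a repressor at antioxidant response elements, measured 105 and 276, 2.63-fold higher in D351. Mafg, a small MAF partner of NRF2 and BACH1, measured 21.0 and 62.9 by its brightest probe set (2.99-fold higher in D351, D16 near the floor), while a further probe set gave -0.18. Mafk measured 79.1 and 75.5, and Arnt, the partner of the aryl hydrocarbon receptor, 31.1 and 40.3. Nr1i3, a nuclear receptor of liver, measured 69.0 and 33.2 by its brightest probe set, 2.08-fold higher in D16. Its other probe sets were within 2-fold, at 39.1 and 39.4 and at 52.7 and 34.2. Keap1, which restrains NRF2, was below the floor in both clones. Among 5 signalling partners of transferases on the array, 4 reached the floor in 1 clone or both, again too few to set against those shares. Jun measured 171 and 61.0, 2.80-fold higher in D16, and 0 of these partners passed 2-fold towards D351, or 1 with the floor at the 25th percentile and with none. Of the regulators, 1 in place of 2 passed 2-fold towards D16 with the arrays scaled on the hybridization controls, where 4.10% of all genes did.

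**Figure D5:**
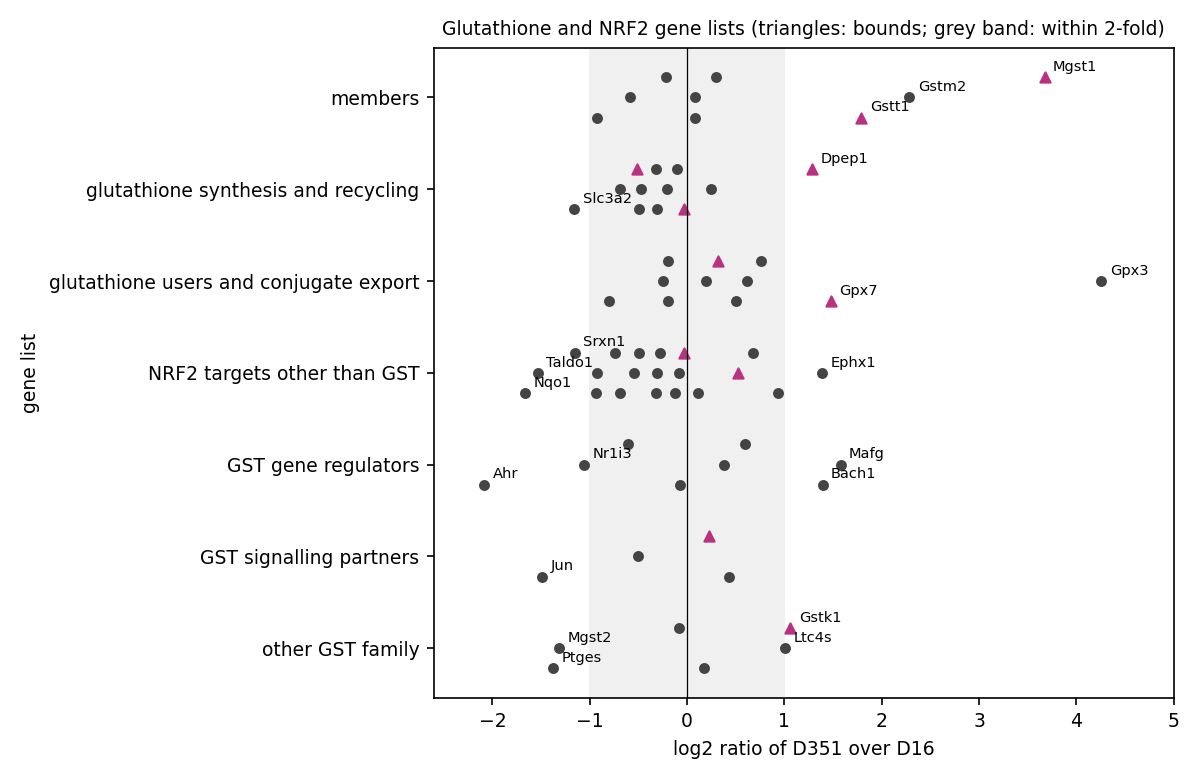
Log2 ratio of D351 over D16 for each gene at or above the floor in 1 clone or both, by list (circles, measured in both clones; triangles, bounds; grey band, within 2-fold; genes outside it are named). The members reach further to the right than to the left. Among NRF2 targets 14 of 18 genes measured in both clones lie left of 0, where 2649 of all 5198 such genes lie.

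Markers of other cells were read beside these values. All 10 genes listed as embryonic fibroblast markers, for the feeder cells, reached the floor in both clones. Thy1 is also on the list of mesenchymal markers below, so this list does not tell feeder cells from the clones themselves. The summed level of the 10 genes was 10081 in D16 and 14857 in D351. Past 2-fold were 5 towards D351 and 1, S100a4, towards D16, where 10.6% and 8.87% of all 6098 genes were. The 7 markers higher in D351 included Lum (23.4 and 94.0) and the matrix genes Postn (415 and 1220) and Col3a1 (444 and 1128). The 3 higher in D16 included S100a4 (1835 and 414), which was the furthest apart of the 10, at 4.43-fold. All 9 hepatocyte markers were below the floor in both clones, at 14.0 or less, Ttr and Afp among them. Of 7 macrophage and blood markers 4 reached the floor in 1 clone or both. The summed level of all 7, values below the floor included, was 139 in D16 and 208 in D351. Cd68 measured 3.74 and 36.9. Cd14 measured 70.1 and 129, Csf1r 21.9 and 18.2, and the haemoglobin gene Hba-a1 30.1 and 13.5, while Ptprc, Adgre1 and Itgam were below the floor in both. The part of feeder or blood cells in the transferase differences was not tested. In bulk RNA, fewer cells with a transcript and less of it per cell cannot be told apart. Of the mesenchymal and progenitor markers, Thy1, Pdgfra, Pdgfrb, Acta2, Cd44 and Vim reached the floor in both clones, Cd34 in D16 alone (475 against 6.71), and Kit and Kdr in neither. By brightest probe sets, 1 was past 2-fold towards D351, Pdgfrb (54.4 in D16 and 197 in D351), and 1 towards D16, Cd34. The all-gene shares are those given above. Vim was near the floor in both clones (22.3 and 23.5). For Actb, the D16 array had a 3′ to 5′ signal ratio of 1.81 and the D351 array one of 1.37, and for Gapdh these ratios were 1.56 and 1.44. The part of these differences in the results was not tested.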

How the data were processed

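The deposited table of the series holds an intensity per probe set on a linear scale, 1 column for each clone. How the authors scaled it and corrected background is not given in the sources used here. The 2% trimmed means of both columns were 100.1, so the deposited intensity values appear to be scaled to a common target. The number of arrays limits the precision. Of 12422 non-control probe sets, 10833 had 1 gene symbol in the platform annotation, 396 several and 1193 none. That annotation describes array version 2, and the labels name U74A without a version. Symbols were updated by Entrez number to RefSeq names of GRCm38.p6.

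Values were multiplied by 0.983 (D16) and 1.02 (D351), which makes the median log2 level of probe sets that reach the floor on both arrays equal. The floor was the 40th percentile of scaled values. Each gene was read from its brightest probe set, by the mean of both arrays. With 1 array per clone no p-value was possible, and differences of 2-fold or more were counted. The same functions were tested on simulated data. The members, lists and alternatives were chosen with earlier results of these data known. Named genes were all members, the further family genes, regulators and mesenchymal markers at or above the floor, and, of each other list, up to 4 genes with the greatest difference past 2-fold (or the 2 brightest). Exceptions are marked, and Keap1, Kit, Kdr, the macrophage and blood markers other than Cd68 and the genes of the closing observations were also named after their values were seen. Python 3.11.15, numpy 2.4.6, pandas 2.3.3, scipy 1.17.1, statsmodels 0.14.6 and matplotlib 3.10.9 were used.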

Additional observations from a re-analysis of the deposited data

How the results depend on the processing

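No paired analysis was possible because there is a single array for each clone; no replicate could be left out. Alternatives changed the scaling, the floor, the probe set of a gene and the size threshold. Of 96 member ratios under them, 86 stayed within the probe set SD of 0.52, 9 moved by more and 1 reversed, which was counted for members past 2-fold in the reported setting. That was Gstm2, at -0.22 with the second brightest probe set, and was 1.03 with the median over probe sets. Gstm1 was -1.03 and -0.47 under the same settings, and had no value for probe sets without a suffix. Of the members within 2-fold, Gstm1 also turned, to -0.0088, with quantile normalization, and Mgst3 to 0.18 with scaling on the hybridization controls. Part of the 86 could not move, so their number is not a measure of robustness. A gene with 1 probe set keeps its ratio under each probe set rule. A gene above each floor on both arrays keeps it when the floor changes. Bounds moved with the floor by construction: Gstt1 was 3.05, 0.18 and 3.40, and Mgst1 4.93, 2.06 and 7.23, for floors at the 25th and 60th percentile and for none. Members at least 2-fold higher in D351 numbered 2 with the 60th percentile floor, without Gstt1, and 2 with second probe sets, without Gstm2. Higher in D16 were 1 with second probe sets (Gstm1) and 2 at 1.5-fold. List medians that moved were those of the regulators, to -0.39 with second probe sets, of the signalling partners, to 0.43 with the 25th percentile floor and with none, and of the other family genes, to -0.70 with the 60th percentile floor and with probe sets without a suffix. Of 156 list counts, 42 moved by over 1.5 times. Mgst1 and Gstt1 were below the floor in D16 and Gsta4 was near it in both clones, so signal over background limits their ratios.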

Other observations

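Both lists here, of genes that act around the transferases in the handling of foreign compounds, were drawn up after the values of the transferases were seen. Of all genes measured, 19.4% were at least 2-fold apart, and the lists are too short to set against that share. Of 6 target genes of the aryl hydrocarbon receptor, whose own gene was 4.23-fold higher in D16, 3 were at or above the floor in 1 clone or both and 0 were 2-fold apart. Cyp1b1, a cytochrome P450 of mesenchymal cells, measured 556 in D16 and 1065 in D351, 1.92-fold higher in D351, the opposite direction to Ahr. Tiparp, another target, measured 64.9 and 50.5. Cyp1a1 and Cyp1a2 were below the floor in both clones.

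Of 9 other conjugating or hydrolysing enzyme genes on the array, 5 were at or above the floor in 1 clone or both, and 0 were 2-fold apart. Nnmt, which methylates nicotinamide, measured 163 in D16 and 155 in D351, Tpmt, the thiopurine methyltransferase, 68.1 and 55.0, and the arylamine acetyltransferase gene Nat2 48.2 and 58.9. Ephx2, the soluble epoxide hydrolase, measured 25.6 in D351 and did not reach the floor in D16.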
